A study of Mus musculus with 51 samples.

Results

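The Hox cluster genes of the mouse were followed through mammary glands, hyperplasias and tumors of a model driven by the Etv6-NTRK3 fusion. A gene was counted as a member when a probe set carried a single symbol made of Hoxa, Hoxb, Hoxc or Hoxd and a number. Where a gene had several probe sets, the one brightest on average across the series stood for it. This gave 33 of the 18192 genes named on the array, with 9 in the Hoxa cluster, 9 in Hoxb, 7 in Hoxc and 8 in Hoxd. Other genes of the clusters were not analysed here.

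Hox genes encode homeodomain transcription factors that bind DNA together with TALE partners such as Pbx and Meis proteins. They lie in 4 clusters, and their order along a cluster follows the order in which they are used along the head to tail axis of the embryo, so that low numbers are called anterior and high numbers posterior. Polycomb complexes keep unused members silent and trithorax complexes keep used members active. In the mouse mammary gland Hoxa9, Hoxb9 and Hoxd9 are together required for the growth of the gland in pregnancy and for lactation.

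RNA was measured on 51 Affymetrix mouse arrays. In the tumor model Cre is expressed from the Wap promoter, a milk protein promoter active in mammary epithelium, and switches on a conditional Etv6-NTRK3 knock-in allele, a fusion of a transcription factor gene with a kinase gene. A floxed lacZ reporter at Rosa26 marked the recombined cells, and the groups called sorted are lacZ+ cells. The groups were sorted cells of hyperplastic glands (4 arrays, 4 mice), sorted cells of primary tumors (8 arrays, 6 mice), sorted cells of tumors transplanted into RAG2-/- recipients (7 arrays, 5 mice of origin, passages 1 to 4), unsorted primary tumors (23 arrays of 22 tumors, 14 mice), unsorted tumors transplanted into RAG2-/- recipients (4 arrays, 2 mice of origin) and unsorted glands of wild-type mice (5 arrays, 5 mice). All groups but the wild-type glands carry Wap-Cre and the fusion allele. RAG2-/- hosts lack mature B and T cells and keep their own stroma. Ages, reproductive state and tissue dissociation of the glands are not given in the labels. Tumors of 1 mouse share that mouse, which was kept as a random block in the fit.

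All levels below are log2 of the deposited intensity, with intensities under 32 set to 32. A level of 5.00 is therefore the floor, and a gene there had no level that could be set against another. The array medians lay between 42.9 and 57.8 on the linear scale, and precision is set by how many arrays each group has. The 2 arrays of tumor CR115 were averaged into 1 replicate. Their Hox levels differed by a median of 0.16 and at most 0.64 over the 19 Hox genes tested. Levels of different genes come from different probes and are not ordered against each other.

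Some of these genes are shown by the sequence before their start sites, because Hoxa5, Hoxa7 and Hoxa9 are near neighbours that fell together in the tumors and Hoxd13 had the largest fitted difference of the members tested. RefSeq promoter sequences (GRCm38.p6) were matched by symbol for 19 of the 33 genes, and Hoxc9 was not among them. Each line below gives the 250 bases before a start site, 5′ to 3′ on the strand of the gene, with every CG in capitals.
Hoxa5, chr6:52204588-52204837, minus strand: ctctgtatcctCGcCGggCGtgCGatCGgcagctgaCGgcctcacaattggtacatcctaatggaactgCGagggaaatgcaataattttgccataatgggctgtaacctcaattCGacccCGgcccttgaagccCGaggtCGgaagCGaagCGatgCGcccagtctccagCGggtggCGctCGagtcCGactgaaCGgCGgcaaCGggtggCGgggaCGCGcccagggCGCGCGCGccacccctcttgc
Hoxa7, chr6:52218574-52218823, minus strand: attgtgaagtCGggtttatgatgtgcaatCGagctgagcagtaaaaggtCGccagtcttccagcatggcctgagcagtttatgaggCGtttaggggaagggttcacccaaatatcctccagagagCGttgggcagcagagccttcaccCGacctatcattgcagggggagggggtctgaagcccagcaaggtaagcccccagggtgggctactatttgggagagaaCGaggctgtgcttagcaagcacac
Hoxa9, chr6:52227371-52227620, minus strand: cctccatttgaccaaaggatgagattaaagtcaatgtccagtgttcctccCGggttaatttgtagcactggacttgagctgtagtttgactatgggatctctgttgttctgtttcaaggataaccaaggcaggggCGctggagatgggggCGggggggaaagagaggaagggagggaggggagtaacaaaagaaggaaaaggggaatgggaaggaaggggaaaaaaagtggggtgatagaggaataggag
Hoxd13, chr2:74667975-74668224, plus strand: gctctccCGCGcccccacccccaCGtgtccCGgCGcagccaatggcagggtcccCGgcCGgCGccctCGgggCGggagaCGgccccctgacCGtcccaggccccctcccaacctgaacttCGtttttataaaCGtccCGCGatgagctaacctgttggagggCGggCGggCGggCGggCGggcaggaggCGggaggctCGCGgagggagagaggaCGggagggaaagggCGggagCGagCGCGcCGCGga
The letters CG were counted on 1 strand, which gives the same count on the other. The Hoxd13 window held 31 of them, more than 94.8% of the 32851 RefSeq windows of this length. Hoxa5 held 28, Hoxa7 held 7 and Hoxa9 held 3, so genes that moved the same way lay at both ends of the range. Over the 21 windows of Hox genes the median was 13 with a range from 2 to 35, against a median of 6 over all windows, of which 92.1% held at least 1 CG. These counts describe the windows and say nothing on methylation, which was not measured.

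Of the 33 genes, 8 were at the floor on every array: Hoxa2, Hoxa4, Hoxb5, Hoxb9, Hoxb13, Hoxd10, Hoxd11 and Hoxd12. Hoxa13, Hoxb1 and Hoxb7 rose above it on 2, 4 and 4 of 50 replicates and no higher than 5.65. The other 22 genes were above the floor in at least 50% of the replicates of some group or were called in a comparison, and these are described. By cluster they were 6 of 9 Hoxa, 4 of 9 Hoxb, 7 of 7 Hoxc and 5 of 8 Hoxd genes. By position they were 5 of 7 anterior genes (1 to 3), 9 of 12 middle genes (4 to 8) and 8 of 14 posterior genes (9 to 13).

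**Figure D1:**
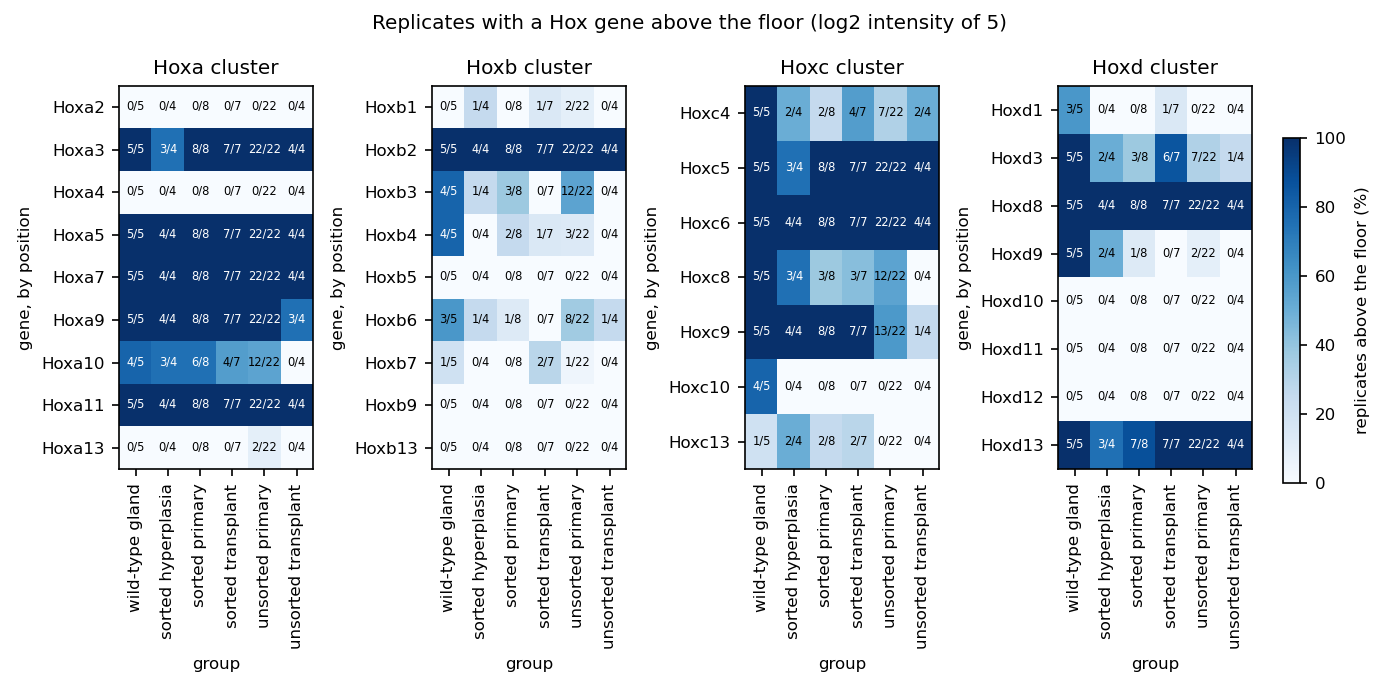
Share of replicates in which each of the 33 Hox genes lay above the floor, by cluster (panels), gene (rows, anterior at the top) and group (columns); the number in a cell is replicates above the floor over replicates measured. Hoxa5, Hoxa7, Hoxa11, Hoxb2, Hoxc6 and Hoxd8 were above the floor in all 50 replicates, and 8 genes were at the floor in all of them.

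Hoxa5, Hoxa7, Hoxa11, Hoxb2, Hoxc6 and Hoxd8 were above the floor in all 50 replicates, and Hoxa3, Hoxa9 and Hoxc5 in 49. Hoxc10 showed the opposite pattern. It lay above the floor in 4 of 5 wild-type glands, at 5.60, 5.66, 5.14 and 5.06, and on no other array. Hoxd1 was above the floor in 3 of 5 glands, at 5.19, 5.58 and 5.89, in 1 sorted transplant at 5.18, and in no tumor of the other groups. Both genes were too dim to pass the filter. The gland mean was at least 1.22-fold higher than the floor for Hoxc10 and at least 1.26-fold for Hoxd1, against unsorted primary tumors that were all at the floor. Hoxc13 was above the floor in 7 of 50 replicates, with a highest level of 5.52 in a sorted primary tumor.

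The first comparison asks how unsorted primary tumors differ from wild-type glands. Of the 19 Hox genes tested, 13 fell in the tumors and none rose. Hoxd13 and Hoxc9, both posterior genes, moved most, by -3.10 and -2.68 on the log2 scale. Hoxa7, Hoxc4, Hoxa5 and Hoxc8 of the middle of the clusters fell by 0.65 to 1.01, while Hoxa3, Hoxa11, Hoxb3, Hoxb6, Hoxc5 and Hoxc6 did not pass the test. Across the array 21.5% of the 15150 genes tested fell and 29.4% rose (limma, adjusted p under 0.05). The median difference was -0.32 over the 19 Hox genes and 0.10 over all genes tested. Several of the 19 genes passed the filter on low values mainly through the glands, so the count and the median are a description. In bulk tissue fewer cells of a type and less RNA per cell cannot be told apart. All unsorted tumor arrays also precede the gland and sorted arrays in the order in which the samples are listed. The labels give no batch, so tissue and order cannot be told apart in this comparison.

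Hoxc9, a thoracic patterning gene, read 7.42, 7.67, 7.89, 8.45 and 7.59 in the 5 glands. In the 22 unsorted primary tumors its lowest level was the floor, its median 5.08 and its highest 5.69. Every tumor was below every gland, and 9 tumors were at the floor. The fitted difference was -2.68 ± 0.25 (SE, limma, adjusted p = 5.47e-12), a 6.43-fold lower level that understates the change because of the floor.

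Hoxd13, the last gene of its cluster and known for digit and genital patterning, read 9.63, 9.37, 9.33, 9.96 and 9.37 in the glands. The tumors ranged from 5.18 to 7.28 with a median of 6.39. The groups did not overlap, and the difference was -3.10 ± 0.51 (SE, adjusted p = 1.75e-06). In a fit of each probe set on its own, chosen after seeing the data, a second Hoxd13 probe set moved the same way and by less, with glands at 6.14 to 6.90, tumors at 5.07 to 5.84 and a difference of -0.92 ± 0.15 (SE, adjusted p = 1.24e-06). The ranges of the second probe set did not overlap either, but the size of the difference was not the same.

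Hoxa7, a trunk patterning gene, read 7.41, 7.60, 7.38, 8.12 and 7.91 in the glands, and the tumors ranged from 5.95 to 7.19 with a median of 6.69. The ranges did not overlap, and the difference was -1.01 ± 0.21 (SE, adjusted p = 8.68e-05). Hoxa5 read 7.05, 6.90, 7.16, 8.41 and 7.90 in the glands and 6.27 to 7.26 in the tumors, with a median of 6.85 and a difference of -0.69 ± 0.16 (SE, adjusted p = 0.000245). The Hoxa5 ranges overlapped: 2 glands were above every tumor, and the other 3 lay among the tumors. Hoxa9 read 6.14, 6.54, 6.44, 6.34 and 6.87 in the glands and 5.16 to 6.34 in the tumors, with a difference of -0.56 ± 0.16 (SE, adjusted p = 0.00317). Its ranges overlapped.

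Among the other Hoxc genes that fell, Hoxc4 read 6.19, 6.32, 5.17, 5.36 and 5.97 in the glands, while 15 of 22 tumors were at the floor and the highest was 5.46. Its difference was -0.73 ± 0.15 (SE, adjusted p = 7.88e-05). Hoxc8, which patterns the trunk skeleton, read 5.95, 6.38, 5.67, 5.40 and 5.75 in the glands. Its tumors ranged from the floor to 6.00, with 10 of 22 at the floor, and the difference was -0.65 ± 0.16 (SE, adjusted p = 0.000574). Both genes had tumors within the range of the glands. The SE of both is pooled over groups with many replicates at the floor. For Hoxc4 the SD was 0.51 in the glands and 0.15 in the tumors. Both p-values are therefore a description.

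In the Hoxd cluster all 4 genes tested fell. Hoxd9, required for lactation together with Hoxa9 and Hoxb9, read 5.68, 5.70, 5.33, 5.39 and 5.41 in the glands. It was at the floor in 20 of 22 tumors and no higher than 5.15, with a difference of -0.49 ± 0.07 (SE, adjusted p = 3.07e-07). Hoxd9 was above the floor in 10 of 50 replicates, 5 of them glands, and passed the filter mainly through these. The SE is pooled over groups mostly at the floor, so this p-value is a description. Hoxd8 read 6.66, 6.83, 6.55, 6.22 and 6.48 in the glands and 5.14 to 6.69 in the tumors, with a difference of -0.49 ± 0.17 (SE, adjusted p = 0.0145). Hoxd3 read 5.18 to 5.44 in the glands and was at the floor in 15 of 22 tumors, with a difference of -0.26 ± 0.09 (SE, adjusted p = 0.0116). A probe set annotated to both Hoxd3 and Hoxd4, which belongs to neither gene alone, had a mean of 6.10 ± 0.18 (SD, n = 5) in the glands and 6.07 ± 0.49 (SD, n = 22) in the tumors and was not tested. Hoxd9 was the member of these 3 without overlap between the groups.

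The remaining calls were small. The differences were -0.32 for Hoxb2 (adjusted p = 0.0417), -0.24 for Hoxa10 (adjusted p = 0.0338) and -0.22 for Hoxb4 (adjusted p = 0.00265). Hoxb4 was above the floor in only 10 of 50 replicates, 4 of them glands, so its p-value is a description. The Hoxa10 call was lost without gland replicate 1, 2 or 3 (adjusted p = 0.112, 0.121 and 0.0871), that of Hoxb2 without gland replicate 4 or 5 (adjusted p = 0.194 and 0.205), that of Hoxb4 without gland replicate 3 (adjusted p = 0.0782) and that of Hoxd8 without gland replicate 2 (adjusted p = 0.0590). Other alternatives lost calls too. With a floor of 16 and with log2(value + 16) those of Hoxa10 and Hoxb4 were lost, and after quantile normalization those of Hoxa10, Hoxb2 and Hoxd3. With a floor of 100 those of Hoxa9 and Hoxd8 were lost, and with the mean of the probe sets that of Hoxa5. The calls of Hoxa7, Hoxc4, Hoxc8, Hoxc9, Hoxd9 and Hoxd13 held in every alternative that could test them. For Hoxd9 the limit of the filter given above remains, and for Hoxc4 and Hoxc8 that of the pooled SE.

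Hoxc6, a gene of the trunk region, had a difference of -0.04 (95% interval -0.28 to 0.20) on the probe set with the highest mean, and the glands at 6.68 to 7.05 lay within the tumors at 6.31 to 7.24. Its other probe sets fell, by 0.44 ± 0.14 (SE, adjusted p = 0.00851) and by 0.63 ± 0.12 (SE, adjusted p = 3.82e-05). Hoxb3 gave -0.16 (95% interval -0.39 to 0.08) on the chosen probe set and -0.55 ± 0.09 on the other (SE, adjusted p = 3.32e-06). For Hoxc6 and Hoxb3 the call thus differs between probe sets, while both Hoxd8 probe sets fell, the second by 0.81 ± 0.12 (SE, adjusted p = 2.23e-07). Hoxa11, a posterior gene known for uterine and limb development, differed by -0.01 with a 95% interval from -0.27 to 0.25. For Hoxa3 the interval ran from -0.32 to 0.47, for Hoxc5 from -0.60 to 0.17 and for Hoxb6 from -0.22 to 0.09.

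**Figure D2:**
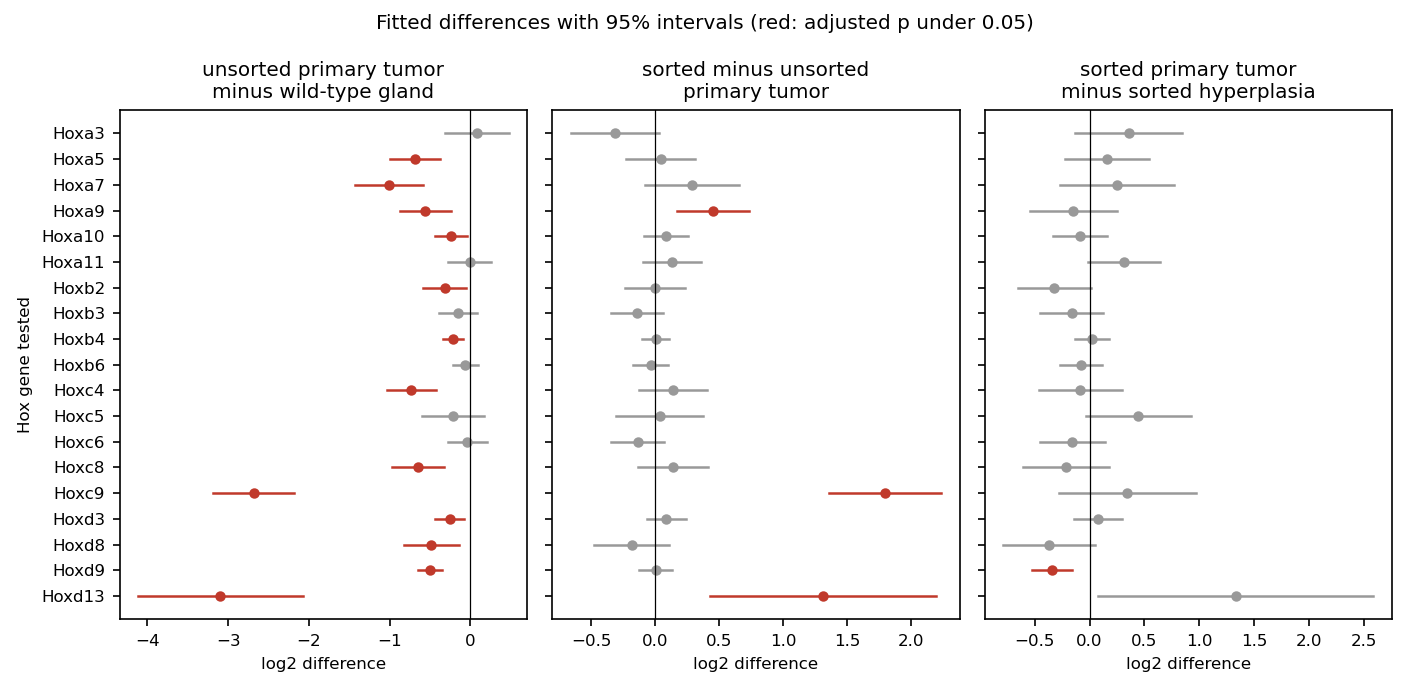
Fitted log2 difference (points) with its 95% interval (lines) for the 19 Hox genes tested, in unsorted primary tumors minus wild-type glands (left), sorted minus unsorted primary tumors (middle) and sorted primary tumors minus sorted hyperplasia (right); red marks an adjusted p under 0.05. In the left panel 13 genes lie below 0, with Hoxd13 at -3.10 and Hoxc9 at -2.68, and in the middle panel Hoxc9 lies at 1.79, Hoxd13 at 1.31 and Hoxa9 at 0.45.

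Markers of other cell types moved with this comparison, in which 29.4% of all genes rose and 21.5% fell. Of 10 fibroblast markers 9 fell and 1 rose, and of 7 endothelial markers all 7 fell. The mean level of the fibroblast markers was 10.01 to 10.7 in the glands, with a median of 10.3. In the unsorted primary tumors it was 5.78 to 10.2, with a median of 7.04, so the ranges overlapped. The endothelial mean was 7.96 to 9.15 in the glands and 5.55 to 7.42 in these tumors. Of 6 basal epithelial markers 3 fell and none rose, and of 6 luminal markers 2 rose and none fell. Of 5 leukocyte markers tested 2 fell, of 4 adipocyte markers 1 fell, and of 3 skeletal muscle markers 1 rose. No fibroblast or endothelial marker was at the floor on every unsorted primary tumor. The part of these cells in the difference between tumors and glands was not tested.

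Across the 14 mice with unsorted primary tumors, with tumors of a mouse averaged, 10 Hox genes could be compared with the fibroblast mean. None was related to it by Pearson's r after adjustment over the 10 relations (permutation test, 100000 resamples, two-sided, smallest adjusted p = 0.870). Hoxc5 had r = 0.47 (permutation p = 0.0934, adjusted p = 0.870), r = 0.39 without the 2 mice farthest from the median, and Spearman's rho = 0.72 (permutation p = 0.00499, adjusted p = 0.0499). The adjusted p of rho was 0.0331 with log2(value + 16), 0.0524 with the mean of the probe sets, 0.106 after quantile normalization and 0.592 against the endothelial markers. Hoxd13 gave r = -0.20 and Hoxa7 r = 0.05. Hoxc9, Hoxc4, Hoxc8 and Hoxd9 were at the floor in too many tumors to be included.

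The tumors also differed among themselves. Of the 22 unsorted primary tumors, tumor CR115 had the lowest level for 8 of the 10 Hox genes that were above the floor in all of them: Hoxa3 at 6.36, Hoxa5 at 6.27, Hoxa7 at 5.95, Hoxa9 at 5.16, Hoxa11 at 5.49, Hoxb2 at 5.85, Hoxc5 at 5.76 and Hoxc6 at 6.31. Over all 11106 genes above the floor in every tumor, CR115 was lowest for 18.2%, the highest share of any tumor, and it also had the lowest mean array median of these tumors, at 44.6. For Hoxd13 it read 6.81, above the median of the tumors.

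The second comparison sets sorted lacZ+ cells of primary tumors against unsorted primary tumors. Hoxc9, Hoxd13 and Hoxa9, all posterior genes, were higher in the sorted cells, and no Hox gene was lower. Hoxc9 differed by 1.79, Hoxd13 by 1.31 and Hoxa9 by 0.45. Across the array 9.62% of genes were higher and 15.7% lower. None of the other Hox genes tested had an unadjusted p under 0.05.

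Hoxc9 ranged from 5.53 to 8.0 in the 8 sorted tumors with a median of 6.76, against a highest level of 5.69 in the unsorted tumors. The difference was 1.79 ± 0.22 (SE, limma, adjusted p = 3.42e-08), and sorted tumors F433T3 and F433T4 lay within the range of the unsorted ones. Hoxa9 ranged from 6.10 to 6.72 in the sorted tumors and from 5.16 to 6.34 in the unsorted ones, with a difference of 0.45 ± 0.14 (SE, adjusted p = 0.0135) and overlapping ranges. Hoxd13 ranged from 5.00 to 9.43 in the sorted tumors and from 5.18 to 7.28 in the unsorted ones, with a difference of 1.31 ± 0.44 (SE, adjusted p = 0.0234). Its second probe set gave 0.42 ± 0.13 (SE, adjusted p = 0.0127).

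**Figure D3:**
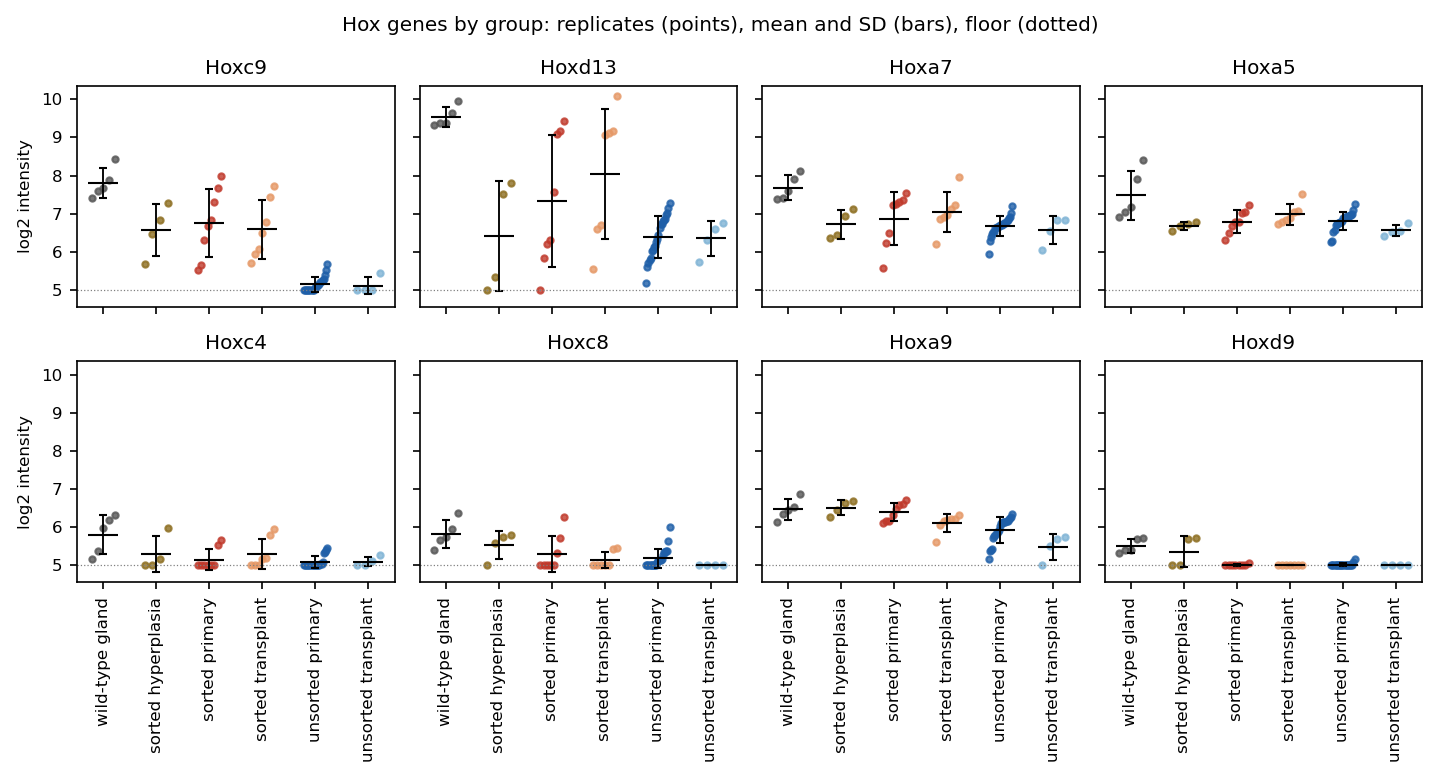
Level (log2 intensity) of 8 Hox genes in every replicate, by group; points are replicates, bars the mean and SD, and the dotted line is the floor. Hoxc9 is near the floor in unsorted tumors and spans 5.53 to 8.0 in sorted primary tumors. Hoxd13, on the probe set used in the fit, splits into high and low replicates within both sorted tumor groups.

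On the probe set used in the fit, the Hoxd13 levels of sorted arrays fell into separate ranges. In sorted primary tumors F464T, F405T, E344T and G294T they were 9.43, 9.17, 9.09 and 7.57, and in F433T1, F433T3, F433T4 and G421T1 they were 5.00, 5.83, 6.30 and 6.20. In sorted transplants D279T1P2, D279T2P2, E344T2P1 and F402TP2 they were 9.10, 9.16, 9.07 and 10.08, and in F433T4P1, D396TP3 and D279T1P4 they were 5.56, 6.71 and 6.60. On this probe set tumor D279T1 was thus high at passage 2 and low at passage 4. Its unsorted primary tumor, D279T1, read 6.33. The second Hoxd13 probe set did not show this split. It read 6.10 in D279T1P2 and 6.14 in D279T1P4. In F464T, F405T, E344T and G294T it read 5.69, 5.73, 6.18 and 6.29. In F433T1, F433T3, F433T4 and G421T1 it read 5.85, 5.72, 5.72 and 5.79.

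Control signals of the arrays moved with this split of the sorted tumor arrays. The Gapdh control probe sets at the 3′ and 5′ ends of the transcript give a log2 ratio that rises when RNA is degraded or short. The ratio was -0.36 to -0.11 on the 4 sorted primary arrays with high Hoxd13 and -0.01 to 0.11 on the other 4, and -0.32 to -0.20 on the 4 high sorted transplants and -0.03 on the other 3. The signal of the BioB and BioC hybridization controls was 9.03 to 10.2 on the log2 scale on the 4 high sorted primary arrays and 8.08 to 8.46 on the other 4, and 9.13 to 10.3 and 8.03 to 8.72 on the high and low sorted transplants. The low-ratio sorted arrays also precede the rest in the order in which the samples are listed, and the labels give no batch, so tumor, ratio, control signal and order cannot be told apart. The hyperplasias did not all follow this split. G376H had a ratio of -0.33 with Hoxd13 at the floor, F493H and G420H had -0.22 and -0.26 with Hoxd13 at 7.53 and 7.79, and H464H had 0.14 with 5.33. In wild-type glands the ratio ran from -0.30 to 1.14 while Hoxd13 stayed between 9.33 and 9.96. The glands are listed beside the low-ratio sorted arrays, after all unsorted tumors.

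With only sorted arrays of a ratio above -0.1, an alternative chosen after seeing the data, Hoxd13 was no longer higher in sorted than unsorted primary tumors, at -0.43 (adjusted p = 0.423). Without the mouse block the Hoxd13 call was also lost (adjusted p = 0.110). Hoxc9 moved with the ratio too, with a mean of 7.45 ± 0.50 (SD, n = 4) on the sorted primary arrays below -0.1 and 6.05 ± 0.54 (SD, n = 4) on those above, yet its call held in both subsets. Hoxa7 had means of 7.36 ± 0.12 and 6.38 ± 0.68 (SD, n = 4 each). The arrays above -0.1 were F433T1, F433T3 and F433T4, all of mouse F433, and G421T1. There n = 4 counts tumors and not mice, while each array below came from a different mouse. Hoxa9 went the other way, with 6.26 ± 0.16 below and 6.51 ± 0.25 above (SD, n = 4 each), and its call was lost on the arrays below -0.1, where the difference was 0.33 against 0.45 on all arrays (adjusted p = 0.161).

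**Figure D4:**
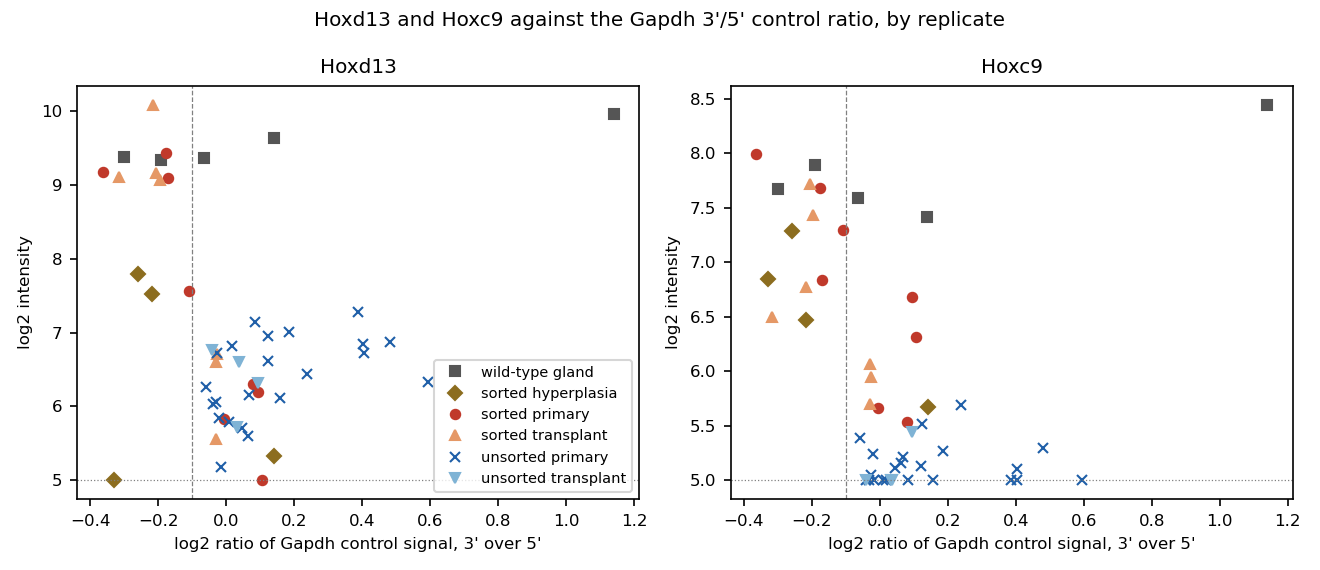
Level (log2 intensity) of Hoxd13 (left) and Hoxc9 (right) against the log2 ratio of 3′ over 5′ Gapdh control signal, with 1 point per replicate and groups by color and shape; the dashed line is a ratio of -0.1 and the dotted line the floor. Sorted primary tumors and transplants left of the dashed line have Hoxd13 of 7.57 to 10.08, those right of it 5.00 to 6.71, and wild-type glands stay at 9.33 or more on both sides.

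Markers of other cells remained in the sorted samples. The fibroblast mean was 9.68 to 10.4 in sorted hyperplasia, 6.89 to 10.6 in sorted primary tumors and 6.64 to 9.12 in sorted transplants. In sorted against unsorted primary tumors 2 of 10 fibroblast and 2 of 5 leukocyte markers were higher, 3 of 6 luminal markers were lower, and no endothelial marker was called. Of 7 endothelial markers only Pecam1, and of 6 leukocyte markers only Cd3e, was at the floor on every array of both sorted tumor groups. Pecam1 and Cd3e were also at the floor in all 4 unsorted transplants. In sorted primary tumors the endothelial mean still reached 6.77 and the leukocyte mean 7.88. The part of these cells in the Hox differences was not tested.

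The third comparison follows the sorted cells from hyperplasia to primary tumor. Hoxd9 was lower in the tumors and no Hox gene was higher, where 2.5% of all genes tested were lower and 1.29% higher. Hoxd9 read 5.72, 5.69, 5.00 and 5.00 in the 4 hyperplasias and was at the floor in 7 of 8 sorted primary tumors, with 5.06 in the other. The difference was -0.35 ± 0.09 (SE, limma, adjusted p = 0.0192), and the ranges overlapped at the floor. This SE is pooled over all groups, and Hoxd9 was at the floor in most unsorted primary tumors and all transplants. The p-value therefore does not measure the spread among the 4 hyperplasias. The call was lost when only the compared groups entered the fit, at -0.34 (adjusted p = 0.555). The difference rests on hyperplasias G376H and F493H. Its call was lost without either of them, at -0.22 and -0.23 (adjusted p = 0.347 and 0.225), and without both, an alternative chosen after seeing the data, the difference was 0.0085. These 2 arrays also had the highest signal of the BioB and BioC hybridization controls of all hyperplasias, at 12.4 and 11.3 on the log2 scale against 9.19 and 8.8; the part of this in the Hoxd9 difference was not tested.

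Hoxd13 was the only other Hox gene with an unadjusted p under 0.05. On the probe set used in the fit it read 5.00, 7.53, 7.79 and 5.33 in the hyperplasias. There its difference was 1.33 ± 0.62 (SE, adjusted p = 0.249) with a 95% interval from 0.08 to 2.58. The second Hoxd13 probe set did not show this difference, at -0.10 ± 0.18 (SE, adjusted p = 0.841). It read 5.99 in G376H, where the probe set used in the fit was at the floor. Hoxc9 read 6.85, 6.47, 7.28 and 5.67, within the range of the sorted tumors, with an interval from -0.28 to 0.97. Hoxa7 read 7.13, 6.45, 6.94 and 6.35 with an interval from -0.27 to 0.77, and Hoxc5 read 5.00, 6.64, 6.69 and 7.03 with an interval from -0.03 to 0.92. On the probe sets used in the fit, G376H was at the floor for Hoxa3, Hoxc5, Hoxc8 and Hoxd13. It was above the other hyperplasias for Hoxc4, at 5.98, and Hoxd8, at 7.0. Marker levels moved here too, with 3 of 10 fibroblast, 3 of 7 endothelial and 3 of 5 leukocyte markers lower in the tumors.

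Transplanted tumors were compared with primary tumors within sorted and within unsorted samples. No Hox gene was called in either (limma, adjusted p under 0.05). Among sorted samples 3 of 19 Hox genes and 606 of 15150 genes had an unadjusted p under 0.05, and 0% of genes was called. The 3 were Hoxb2 at 0.26, Hoxc6 at 0.25 and Hoxd3 at 0.18, each with an adjusted p of 1.0. Among unsorted samples no Hox gene but 1568 of all genes had an unadjusted p under 0.05, and 0.944% of genes was called. The difference between both transplant effects was called for no Hox gene and for 0.0858% of genes, with an unadjusted p under 0.05 for no Hox gene and 1192 of all genes. Both transplant groups are set against primary groups that also enter other comparisons here.

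Hoxc9 in transplants lay in the range of the primary tumors of the same kind. The sorted transplants read 5.70 to 7.72, with an interval of the difference from -0.70 to 0.28, and the unsorted ones read 5.00, 5.00, 5.00 and 5.44, with an interval from -0.56 to 0.61. Hoxd9 was at the floor in all 7 sorted and all 4 unsorted transplants. Hoxa10, Hoxb3, Hoxb4 and Hoxc8 were at the floor in all 4 unsorted transplants, where 12, 12, 3 and 12 of 22 unsorted primary tumors lay above it. Hoxa9 read 5.67 and 5.00 in the recipients of CR90 and 5.75 and 5.51 in those of CR115, so that 1 transplant lay below every unsorted primary tumor, with an interval from -0.63 to 0.11. For Hoxd13 the interval ran from -0.63 to 1.35 in sorted and from -1.37 to 0.98 in unsorted samples.

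Further probe sets of Hoxa3 and Hoxa5 were read on their own. The second Hoxa3 probe set was at the floor in all 5 wild-type glands and all 4 unsorted transplants but above it in 13 of 22 unsorted primary tumors, with a highest level of 9.11. The levels grouped in part by mouse. All 4 tumors of mouse C117 were high, at 7.90, 8.92, 7.10 and 7.39. In mouse D14 the tumors D14T1 and D14T2 read 6.03 and 9.11, and in mouse D206 the tumors D206T1 and D206T2 read 8.85 and 6.18. Tumors E93T1 and D481 read 7.88 and 6.66, and CR115, D279T1, D203T1 and both tumors of D254 were at the floor. Hyperplasias G376H and H464H read 7.24 and 6.71. The fitted difference between unsorted tumors and glands was 1.06 ± 0.52 (SE, adjusted p = 0.0881), and the Hoxa3 probe set used in the fit was between 6.36 and 7.18 in all these tumors, so the probe sets of this gene disagree.

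The second Hoxa5 probe set was above the floor in 2 of 22 unsorted primary tumors, B459L at 7.84 and C231T1 at 6.84. It also read 6.73 in F433T3, 5.70 in F433T4 and 6.16 in F433T4P1, the transplant of the latter, while sorted tumor F433T1 of the same mouse was at the floor. The recipients of the CR90 tumor read 5.52 and 5.75, and 3 of 5 glands read 5.38 to 5.68. The difference between unsorted tumors and glands was -0.06 ± 0.30 (SE, adjusted p = 0.896). Hoxa5 on the probe set used in the fit read 7.09 in B459L and 6.78 in F433T3, within the range of the other tumors.

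**Figure D5:**
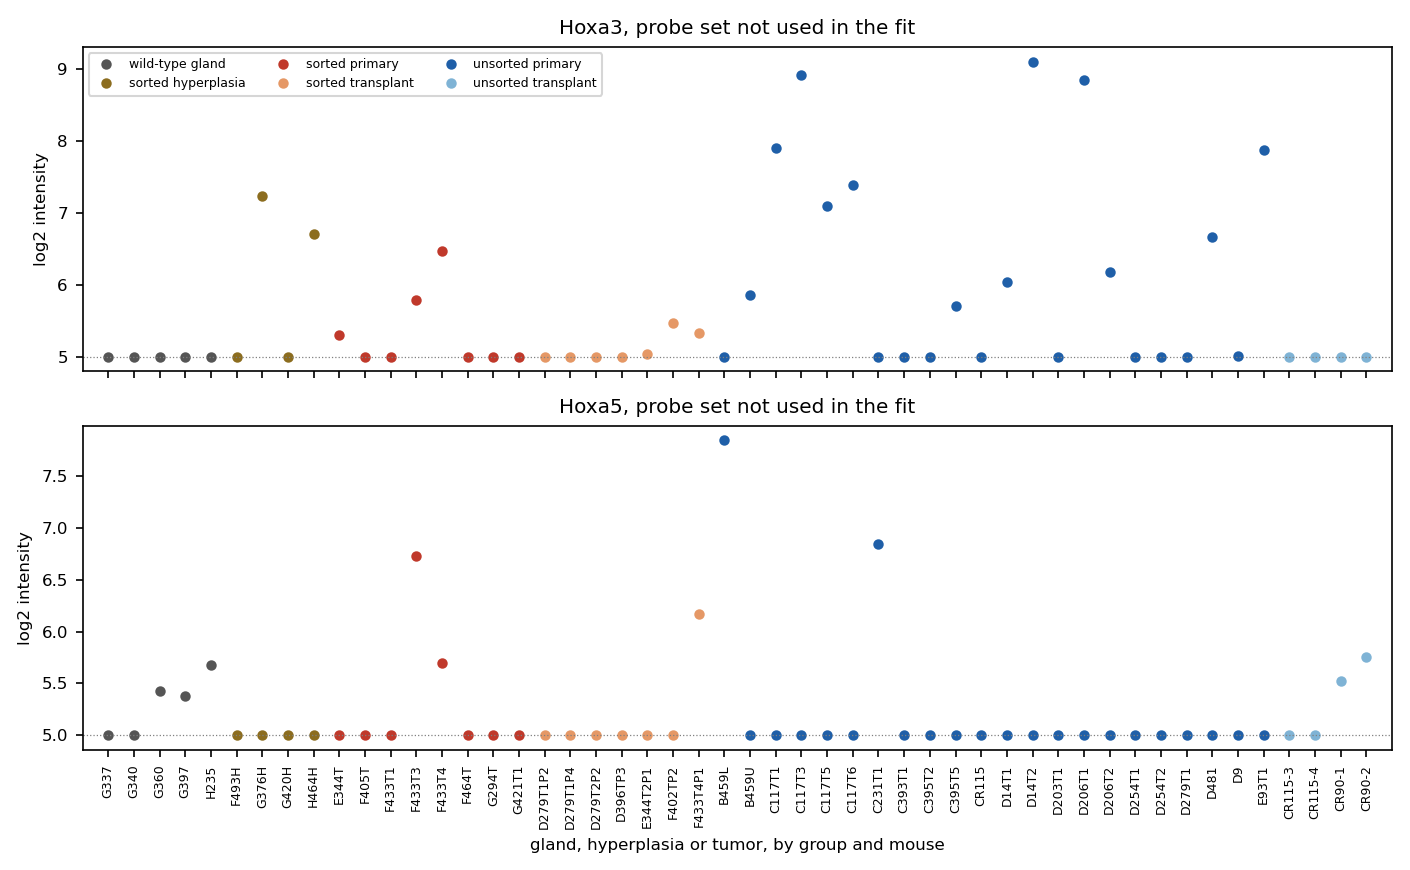
Level (log2 intensity) of the Hoxa3 and Hoxa5 probe sets not used in the fit, in every gland, hyperplasia and tumor, ordered by group and mouse and colored by group; the dotted line is the floor. The Hoxa3 probe set is at the floor in all 5 glands and reaches 9.11 in unsorted primary tumors, and the Hoxa5 probe set is above the floor in few tumors, up to 7.84.

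The cofactors and chromatin regulators of Hox genes were read from lists in the same limma fit. Over all genes tested, 29.4% rose and 21.5% fell in unsorted tumors against glands, and 9.62% were higher and 15.7% lower in sorted than unsorted primary tumors, which is the background for the counts of these lists. Of 7 TALE partners tested, Pbx2 rose by 1.46 ± 0.22 (SE, adjusted p = 4.32e-07) and Pbx3 by 0.48 ± 0.15 (SE, adjusted p = 0.00699) in unsorted tumors against glands, and Meis1 fell by 0.65 ± 0.17 (SE, adjusted p = 0.0011). From sorted hyperplasia to sorted tumor Meis1 rose by 0.92 ± 0.21 (SE, adjusted p = 0.00449), the only TALE partner called, and Pknox2 was higher in sorted than unsorted tumors by 0.30 ± 0.10 (SE, adjusted p = 0.0262). Meis1 thus moved in opposite directions in comparisons with different reference tissues. Pbx and Meis proteins bind DNA as dimers with Hox proteins, and Pknox2 belongs to the same homeodomain class.

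Of 14 Polycomb genes tested, 6 rose and 3 fell in unsorted tumors against glands, where 29.4% of all genes rose and 21.5% fell. Cbx2, a reader of the repressive mark, rose by 1.18 ± 0.18 (SE, adjusted p = 6.08e-07), Pcgf2 by 0.71 ± 0.13 (SE, adjusted p = 1.36e-05) and Phc1 by 0.96 ± 0.23 (SE, adjusted p = 0.000431), while Cbx7 fell by 0.65 ± 0.13 (SE, adjusted p = 5.32e-05). Cbx2 was also higher in sorted tumors than in sorted hyperplasia, by 0.78 ± 0.22 (SE, adjusted p = 0.0346). In sorted against unsorted tumors 5 of the 14 were lower and none higher, beside 15.7% and 9.62% of all genes, among them Pcgf2, Phc1, Ring1 and Ezh1. The median over the list was 0.35 in tumors against glands and -0.05 in sorted against unsorted tumors, beside 0.10 and -0.05 over all genes.

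Of 9 trithorax and related genes, 5 rose and 2 fell in unsorted tumors against glands, where 29.4% of all genes rose and 21.5% fell. Ash2l and Wdr5, core subunits of the complexes that write the activating mark, rose by 1.96 ± 0.22 (SE, adjusted p = 5.97e-10) and 0.63 ± 0.11 (SE, adjusted p = 3.31e-06), and Rbbp5 by 0.58 ± 0.12 (SE, adjusted p = 9.2e-05). Kdm6b, a demethylase that removes the Polycomb mark, fell by 1.58 ± 0.30 (SE, adjusted p = 1.88e-05) and was higher in sorted than unsorted tumors by 1.45 ± 0.26 (SE, adjusted p = 4.58e-05). In that comparison 4 of the 9 genes were lower, where 15.7% of all genes were, with Wdr5 at -0.61, Ash2l at -0.98 and Kmt2b at -0.45 among them. Men1, which tethers these complexes, was higher in sorted tumors than in hyperplasia by 0.90 ± 0.24 (SE, adjusted p = 0.0205). Wdr5 was the only gene of these lists called between transplanted and primary unsorted tumors, at 0.59 ± 0.12 (SE, adjusted p = 0.00632).

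Of 11 retinoid and caudal regulators tested, which act upstream of Hox genes in the embryo, Rxra, Rxrb and Rara rose in unsorted tumors against glands by 1.77, 0.69 and 0.84, and Rarg fell by 1.04 ± 0.22 (SE, adjusted p = 0.000112). Rara and Rxra were lower in sorted than unsorted tumors, at -0.64 and -0.68. Of the transcripts within and beside the clusters, 4 were tested, and the only call was Hoxd3os1, with sorted minus unsorted tumors at -0.39 ± 0.12 (SE, adjusted p = 0.0123). These lists were chosen with earlier results of the data known, and their counts are descriptions.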

How the data were processed

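RNA of 51 samples was measured on Affymetrix mouse MOE430.2 arrays, hybridized with biotinylated cRNA from Trizol extracts, per the labels' protocols. The deposited values are linear signal intensity per probe set, and the steps of summarization and scaling are not given in the sources used here. The table held 45101 probe sets, 64 of them controls; 34944 had 1 gene symbol (34740 matched by Entrez number), 932 several and 9160 none listed. One probe set with 2 values above 1000000 was left out. Array medians lay between 42.9 and 57.8, and 37.4% of values were at or below the floor.

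Intensities were floored at 32 and put on the log2 scale, and each gene was read from its probe set with the highest mean. Genes above the 40th percentile of the array on at least 4 arrays were tested (15150). All 6 groups entered 1 limma fit (limma 3.58.1, R 4.3.3) of 50 replicates, with the mouse of origin as a random block (correlation 0.358) and Benjamini-Hochberg adjustment over all genes tested. A call is an adjusted p under 0.05. Where tumors share a mouse, or the labels do not say that samples are separate, p-values measure the spread between these samples. Tables and figures used Python 3.11.15, numpy 2.4.6, pandas 2.3.3, scipy 1.17.1 and matplotlib 3.10.9. Simulated data with known changes were used to test the fit. The changes were set between unsorted primary tumors and glands, in genes well above the floor and without a mouse effect. The simulation therefore does not cover genes near the floor.

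The Hox members, the lists (TALE partners, Polycomb, trithorax, retinoid and caudal regulators, transcripts within and beside the clusters, and cell type markers) and the tests were chosen with earlier results of these data known. The members are the Hox genes with a probe set of their own, and the 3 Hox probe sets annotated to several genes are no members. Values are given for those called in a comparison or above the floor in at least 50% of the replicates of a group. Of the lists, called members are named, at most 4 per list and comparison in order of adjusted p. Alternatives changed the floor, log scale, scaling, filter, probe set rule, block, samples and variance prior, and left out single replicates. Alternatives on the Gapdh ratio, on leaving out hyperplasias G376H and F493H together and on single probe sets were added after seeing the data.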

Additional observations from a re-analysis of the deposited data

Results flagged for a closer look

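In 13 of 93 groups of 4 to 10 replicates, over the 22 Hox genes described, 1 replicate stood apart from the others of its group by Dixon's test, where chance gives about 1 in 20. In 10 of the 13 every other replicate of the group was at the floor, so any value above it stands apart and that rate does not apply. Hoxa9 read 5.60 in sorted transplant replicate 2, against 6.04 to 6.33 in the others. Hoxb3 read 5.88 in hyperplasia replicate 1. Hoxb4 read 5.14 in sorted primary replicate 1 and 5.01 in sorted transplant replicate 4. Hoxb6 read 5.39 in hyperplasia replicate 4, 5.12 in sorted primary replicate 8 and 5.14 in unsorted transplant replicate 3. Hoxc9 read 5.44 in unsorted transplant replicate 4. Hoxc13 read 5.35 in gland replicate 5 and 5.12 in sorted transplant replicate 7. Hoxd1 read 5.18 in sorted transplant replicate 4, Hoxd3 read 5.39 in unsorted transplant replicate 4, and Hoxd9 read 5.06 in sorted primary replicate 2.

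Probe sets outside the main measurement carried signal above that of the wild-type glands. The second Hoxa3 probe set reached 9.11 in unsorted primary tumor D14T2, with all 5 glands at the floor. The second Hoxa5 probe set reached 7.84 in unsorted primary tumor B459L, with glands no higher than 5.68.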

How the results depend on the processing

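Over the alternatives that could test them, 321 of 339 values of the 13 Hox genes called between unsorted tumors and glands kept their call and direction, 18 lost the call and 0 reversed. Hoxa7, Hoxc4, Hoxc8, Hoxc9, Hoxd9 and Hoxd13 kept it in all of them. With a floor of 100, where 11 Hox genes could be tested, 5 were called. Sorted against unsorted tumors, only Hoxc9 kept its call throughout, and Hoxd13 turned to -0.43 with sorted arrays of a Gapdh ratio above -0.1. From hyperplasia to tumor the count of 1 Hox gene fell to 0 with a floor of 100, with the filter at the array median, with only the groups compared, with the ratio above -0.1 and without hyperplasia replicates 1 and 2 together, was 2 with the ratio below -0.1, and ranged from 0 to 1 when single replicates were left out. Hoxd9 then gave 0.00013 with the ratio above -0.1 and 0.0085 without both hyperplasias. Why the counts changed between alternatives was not tested. No Hox gene was called between transplants and primary tumors, or related to the fibroblast markers by Pearson's r, in any alternative run; by Spearman's rho, Hoxc5 kept its call with log2(value + 16) and lost it with quantile normalization and with the mean of the probe sets. No paired analysis was possible because the replicate numbers count arrays or recipients; mouse of origin, which some transplants share with a primary tumor, entered as the random block. Many Hox genes lie near the floor, where a difference is understated.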
